A study of Mus musculus with 2 samples.

Results

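Chemokines are small secreted proteins that direct cell movement, and this report covers the genes of mouse chemokines, of their G protein-coupled receptors and of the atypical receptors in single cells of the anterior eye segment. Members were taken by symbol from the deposited feature lists: Ccl and Cxcl ligands, Cx3cl1 and Cx3cr1, the Ccr and Cxcr receptors, and the Ackr atypical receptors. The rule took 64 of 32285 gene rows, made up of 43 ligand rows and 21 receptor rows with 58 distinct symbols. No measured value entered the rule. Of the 64 rows, 9 had no unique molecular identifier (UMI, 1 counted RNA molecule), 9 had 1 to 49 UMIs and 46 had at least 50.

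The study asked how loss of the transcription factor Foxc2 in the neural crest changes the tissues that drain aqueous humor, and it profiled pooled anterior segments by droplet-based single-cell RNA sequencing. NC-Foxc2-/- mice carried the genotype Foxc2 flox/flox;Wnt1Cre+, and control mice were Foxc2 flox/flox. Both were of mixed strain, the labels give 4 weeks of age, and the iris was removed before the tissue was digested. Wnt1-Cre acts in the neural crest lineage, which gives rise to meshwork, corneal stroma and mural cells but not to leukocytes or to the endothelium of Schlemm's canal (SC). NC-Foxc2-/- eyes with moderate phenotypes were chosen and pooled across several mice. There was 1 library per condition, so no statistical test was possible, and each difference given here compares 2 libraries. Intervals (95%) are exact and cover counting error only.

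After removal of cells with over 8% mitochondrial UMIs, 10872 NC-Foxc2-/- and 10773 control cells remained, with medians of 6517 and 7663 UMIs per cell, and 45 barcodes occurred in both libraries. Levels are CPM, the UMIs of a gene scaled to the UMI total of its class and library, and 25 classes were compared. Meshwork (TM-1 to TM-3 and uveal meshwork), fibroblast and endothelial classes carry the study's names. Other classes were rebuilt from the counts without the member genes and are called by their markers with "-like", so a difference from the study may come from rebuilt names. A leukocyte cluster whose leading genes held no marker of the name it would have had is called leukocyte cluster 11. The dendritic-like and limbal epithelial-like classes kept their names although their leading genes held no listed marker of those names either. Those names are less certain. Foxc2 itself had 4 UMIs in NC-Foxc2-/- fibroblasts, against 155 in control fibroblasts, and 38 against 169 in TM-3, 45 against 407 in uveal meshwork and 6 against 213 in pericyte-like cells. In keratocyte-like cells the direction was the other way, with 378 Foxc2 UMIs in NC-Foxc2-/- cells and 111 in control cells. What that difference rests on was not tested, nor was where the 3′ tags lie relative to the deleted stretch.

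As background, chemokines bind receptors that signal through inhibitory G proteins and arrestins, and they are grouped by the spacing of their first cysteines into CC, CXC and CX3C families. Inflammatory chemokines such as CCL2 and CXCL2 are induced by cytokine and microbial signals through NF-kB and recruit monocytes and neutrophils, while CXCL9 and CXCL10 are induced by interferons and recruit activated T cells. Homeostatic chemokines such as CXCL12, CCL19 and CCL21 place leukocytes in tissue and lead dendritic cells into lymphatic vessels. Atypical receptors take up chemokines without the usual signal. In the eye, resident macrophages and dendritic cells lie in the corneal limbus, iris stroma and outflow tissue.

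Promoter sequences of 4 ligands are shown because these genes were among those that differed between the libraries in fibroblasts. Cxcl1, Cxcl2 and Cxcl3 encode ligands of CXCR2 and lie on chromosome 5, as does Cxcl10. Each is given 5′ to 3′ on its own strand from RefSeq on GRCm38.p6, the patch release of the files' build mm10, with matches to the NF-kB consensus in capitals and, in Cxcl10, also a match to GAAA, any 2 bases and GAAA, a short form of the interferon-stimulated response element.
Cxcl1, chr5:90891145-90891244, plus strand: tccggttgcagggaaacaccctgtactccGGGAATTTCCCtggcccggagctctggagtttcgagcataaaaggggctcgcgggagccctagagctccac
Cxcl2, chr5:90903799-90903898, plus strand: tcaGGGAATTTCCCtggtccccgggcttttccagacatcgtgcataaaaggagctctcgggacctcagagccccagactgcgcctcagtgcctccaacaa
Cxcl3, chr5:90786001-90786100, plus strand: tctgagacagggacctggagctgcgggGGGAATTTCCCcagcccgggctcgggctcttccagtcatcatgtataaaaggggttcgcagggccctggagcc
Cxcl10, chr5:92348980-92349104, minus strand: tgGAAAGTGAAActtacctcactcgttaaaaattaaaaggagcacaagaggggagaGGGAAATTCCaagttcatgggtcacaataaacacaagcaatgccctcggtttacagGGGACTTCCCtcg

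The 3 CXCR2 ligand genes shared the stretch GGGAATTTCCC, which matches the NF-kB consensus on both strands with overlapping matches. It lay at -71 to -61 from the transcript start in Cxcl1, -97 to -87 in Cxcl2 and -73 to -63 in Cxcl3. Cxcl10 held GAAAGTGAAA at -213 to -204 and NF-kB matches at -159 and -103. Of the other members that differed in fibroblasts, Ackr2 held an NF-kB match. None was found for Ccl5, Ccl11, Cxcl9 or Cxcl13, so the match was not shared by all members that differed there. Members without a promoter sequence could not be searched. Over the 250 bases before the start, searched on both strands, the NF-kB consensus stood in 9 of 51 member promoters (17.65%), beside 3.899% of all 32851 promoters. The interferon element stood in 3 of 51 member promoters (5.882%), beside 2.977% of all, and TTCNNNGAA, a STAT-type motif, in 3 of 51 (5.882%), beside 7.02% of all. A match describes letters and is not a binding site, and 44 of 58 member symbols had a promoter in the table.

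The highest level of any ligand was that of Cxcl2, a neutrophil attractant, in macrophage-like 2. It reached 34228 CPM in NC-Foxc2-/- cells (interval 33622 to 34843; 79 cells) and 24888 CPM in control cells (23843 to 25967; 19 cells), a ratio of 1.38 (1.31 to 1.44). Macrophage-like 1 had 23069 CPM of Cxcl2 in NC-Foxc2-/- cells and 14996 CPM in control cells, and leukocyte cluster 11 had 12549 and 8532 CPM. Macrophage-like 1 to 6 together gave 52.47% of the Cxcl2 UMIs of the NC-Foxc2-/- library and 32.71% of those of the control library. Such shares depend on the number of cells in each class as well as on levels. Cxcl1, which shares its receptor, was spread more widely. Its highest level over both libraries was in macrophage-like 2, with 4470 CPM in NC-Foxc2-/- cells and 2507 CPM in control cells, followed by macrophage-like 1 and TM-2. In the control library alone it was highest in pericyte-like cells, with 1792 CPM in NC-Foxc2-/- and 2952 CPM in control cells. TM-2 had 2582 CPM of Cxcl1 in NC-Foxc2-/- cells and 2530 CPM in control cells, a ratio of 1.02 (0.967 to 1.08). Cxcl3 was highest in leukocyte cluster 11, at 1544 and 1299 CPM. Cxcl5, a further neutrophil attractant, was instead highest in fibroblasts, with 553 CPM in NC-Foxc2-/- and 278 CPM in control fibroblasts.

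**Figure D1:**
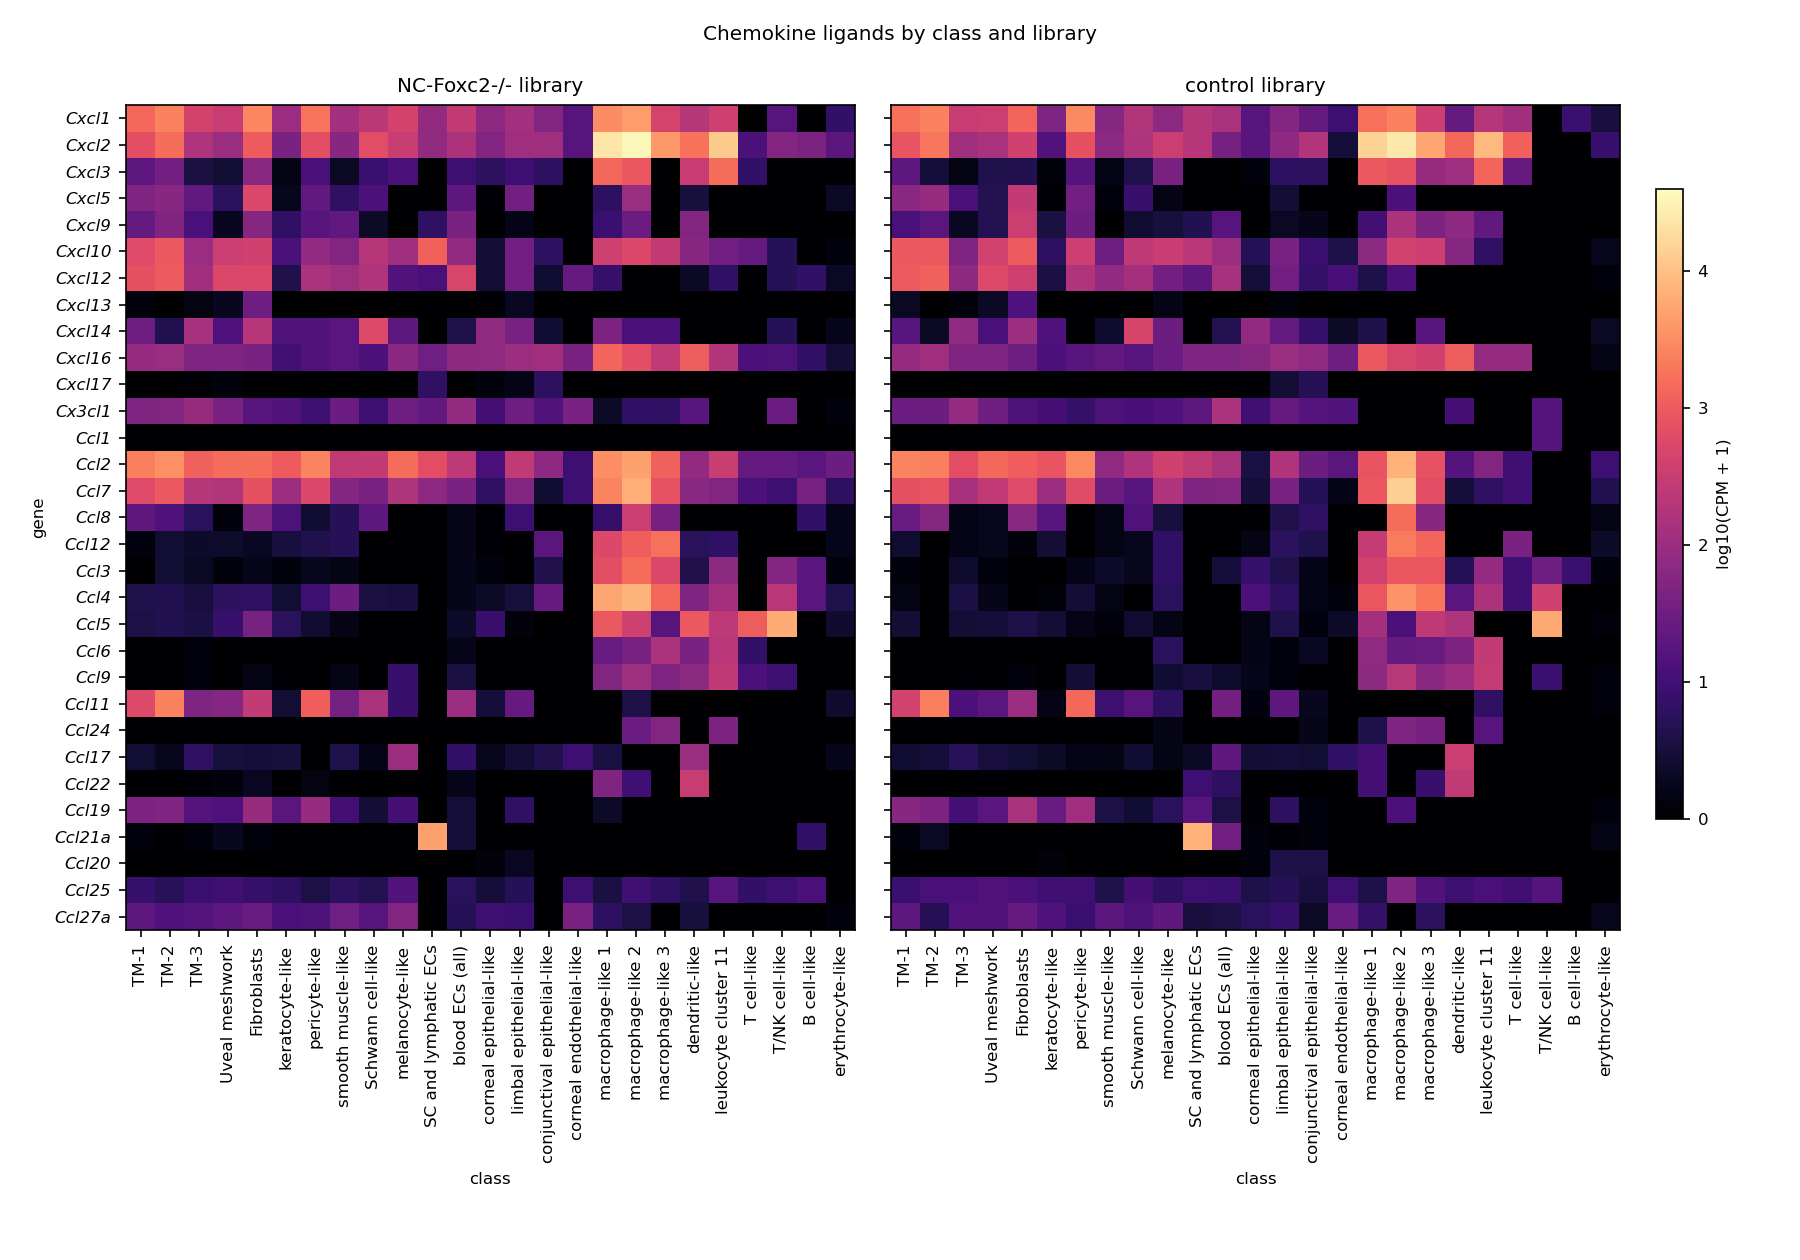
Levels of 31 chemokine ligands (rows) in 25 classes (columns), shown as log10(CPM + 1) in color, with the NC-Foxc2-/- library on the left and the control library on the right. Cxcl2 stands out in the macrophage-like classes at up to 34228 CPM, Ccl21a in SC and lymphatic ECs and Ccl5 in T/NK cell-like cells.

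Among ligands of CXCR3, the receptor of activated T and NK cells, Cxcl9 was highest in fibroblasts in both libraries, with 58.0 CPM in NC-Foxc2-/- and 334 CPM in control fibroblasts. The highest class for Cxcl10 differed between the libraries. It was SC and lymphatic ECs in the NC-Foxc2-/- library and fibroblasts in the control library, while TM-2 had 934 CPM in NC-Foxc2-/- cells and 935 CPM in control cells. Of the 221 Cxcl10 UMIs in the 23 NC-Foxc2-/- SC and lymphatic ECs, 88 lay in the highest cell. The rank of that class in the NC-Foxc2-/- library thus leans on a single cell. With the libraries summed, TM-2 was the highest class for Cxcl10, also with the highest cells left out. Cxcl11 had no row in the files.

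Cxcl12, the ligand of CXCR4 and ACKR3, was highest in TM-2 in both libraries, with blood endothelial cells pooled. TM-2 had 1012 CPM in NC-Foxc2-/- cells and 1208 CPM in control cells, TM-1 had 780 and 1038 CPM, and uveal meshwork had 518 and 581 CPM. TM-3 had 119 and 71.1 CPM, below fibroblasts at 521 and 379 CPM. A Cxcl12 UMI was found in 87.9% of NC-Foxc2-/- and 95.3% of control TM-2 cells. Erythrocyte-like cells, which should lack it, had one in 0.464% and 0.102%, with median depths of 4116 and 4719 UMIs in TM-2 and 4085 and 4013 UMIs in erythrocyte-like cells. The meshwork classes gave 51.49% of the Cxcl12 UMIs of the NC-Foxc2-/- library and 72.2% of those of the control library. Cell numbers enter such shares. Uveal meshwork had 592 NC-Foxc2-/- and 1025 control cells, TM-1 had 499 and 609, TM-2 had 257 and 190, TM-3 had 1142 and 852 and fibroblasts had 962 and 433. Cxcl14, a chemokine without a settled receptor, was highest in Schwann cell-like cells, at 574 and 461 CPM. The membrane-bound ligand of CXCR6, Cxcl16, was highest in macrophage-like 1 (1294 and 926 CPM) and dendritic-like cells (1062 and 1067 CPM). Fibroblasts had the highest level of the CXCR5 ligand Cxcl13, at 30.7 and 12.6 CPM, with a UMI in 3.64% of NC-Foxc2-/- and 3.70% of control fibroblasts, and in no erythrocyte-like cell.

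Of the ligands of CCR2, the receptor of classical monocytes, Ccl2 had the largest UMI total of all members, at 167264. Its level was highest in macrophage-like 2, with 4986 CPM in NC-Foxc2-/- cells and 7289 CPM in control cells. Most of its UMIs came from elsewhere, with 38.59% in keratocyte-like cells of the NC-Foxc2-/- library and 33.16% in those of the control library, and 24.4% and 36.76% in the meshwork classes. TM-2 had 3425 CPM of Ccl2 in NC-Foxc2-/- cells and 2320 CPM in control cells, and pericyte-like cells had 2647 and 2892 CPM. Ccl7 reached 6552 CPM in NC-Foxc2-/- and 13913 CPM in control macrophage-like 2. Ccl12, a mouse ligand of CCR2, had 1696 and 1286 CPM in macrophage-like 3 and 1103 and 2146 CPM in macrophage-like 2, so its highest class differed between the libraries. Ccl8 was highest in macrophage-like 2 in both libraries.

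The CC ligands Ccl3, Ccl4, Ccl5, Ccl6 and Ccl9, which act on monocytes, macrophages or T cells, were highest in leukocytes. Ccl4 was highest in macrophage-like 2, at 7356 CPM in NC-Foxc2-/- cells and 3709 CPM in control cells, and Ccl3 in the same class at 1548 and 886 CPM. Ccl5 was a transcript of T/NK cell-like cells, with 6313 CPM (6005 to 6633) in NC-Foxc2-/- and 5898 CPM (5492 to 6325) in control cells, whose intervals overlap. Ccl6 and Ccl9 were highest in leukocyte cluster 11, at 218 and 284 CPM for Ccl6 and at 246 and 295 CPM for Ccl9.

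Ccl11 (eotaxin), which recruits eosinophils through CCR3, was highest in TM-2 in both libraries. It had 2514 CPM (2424 to 2607) in NC-Foxc2-/- cells and 2339 CPM (2244 to 2438) in control TM-2 cells. Pericyte-like cells followed with 1106 and 1422 CPM, and TM-1 with 574 and 405 CPM. Both CCR4 ligands were highest in dendritic-like cells over the 2 libraries. Ccl22 had 303 and 264 CPM there, and Ccl17 had 95.2 and 352 CPM. In melanocyte-like cells, 41 UMIs of Ccl17 in the NC-Foxc2-/- library lay in 1.56% of 64 cells, which is 1 cell, against 1 UMI in 183 control cells. Ccl24, the other CCR3 ligand listed, was highest in macrophage-like 3 with the libraries summed, at 54.0 and 37.5 CPM from 10 and 16 UMIs, while in the control library alone macrophage-like 2 was higher (28.2 and 46.7 CPM, 10 and 4 UMIs).

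The CCR7 ligands, which lead dendritic and T cells toward lymphatic vessels and lymph nodes, had separate sources. Ccl21a was a transcript of SC and lymphatic ECs, with 5084 CPM (4765 to 5418) in NC-Foxc2-/- cells and 7297 CPM (7116 to 7482) in control cells, a ratio of 0.697 (0.65 to 0.746). A UMI of Ccl21a occurred in 56.5% of 23 NC-Foxc2-/- and 63.1% of 84 control cells of that class (median depths 6151 and 6166 UMIs), against 0% and 0.205% of erythrocyte-like cells. Ccl21b and Ccl21c, near-identical copies, had no UMI, and how reads of such copies were shared out was not tested. Ccl19 was highest in fibroblasts, at 91.0 and 144 CPM, and pericyte-like cells, at 86.3 and 115 CPM.

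The remaining ligands with at least 50 UMIs were low in every one of the 25 classes. Ccl20, the CCR6 ligand, was highest in limbal epithelial-like cells within each library, with 3 UMIs in NC-Foxc2-/- and 32 UMIs in control cells, and in conjunctival epithelial-like cells (0 and 36 UMIs) with the libraries summed. Cxcl17, a mucosal chemokine, was highest in conjunctival epithelial-like cells with the libraries summed, from 3 and 54 UMIs. Ccl27a, a skin ligand of CCR10, was highest in corneal endothelial-like cells with the libraries summed, at 40.5 and 26.1 CPM, but in melanocyte-like cells in the NC-Foxc2-/- library (52.7 and 20.4 CPM), with its copies uncertain. Ccl25, the ligand of CCR9, had its highest summed level in macrophage-like 2, from 3 and 4 UMIs of 1260 in all. Ccl28 and Ccl27b had 42 and 1 UMIs over both libraries, and Ccl26 and Cxcl15 had none.

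**Figure D2:**
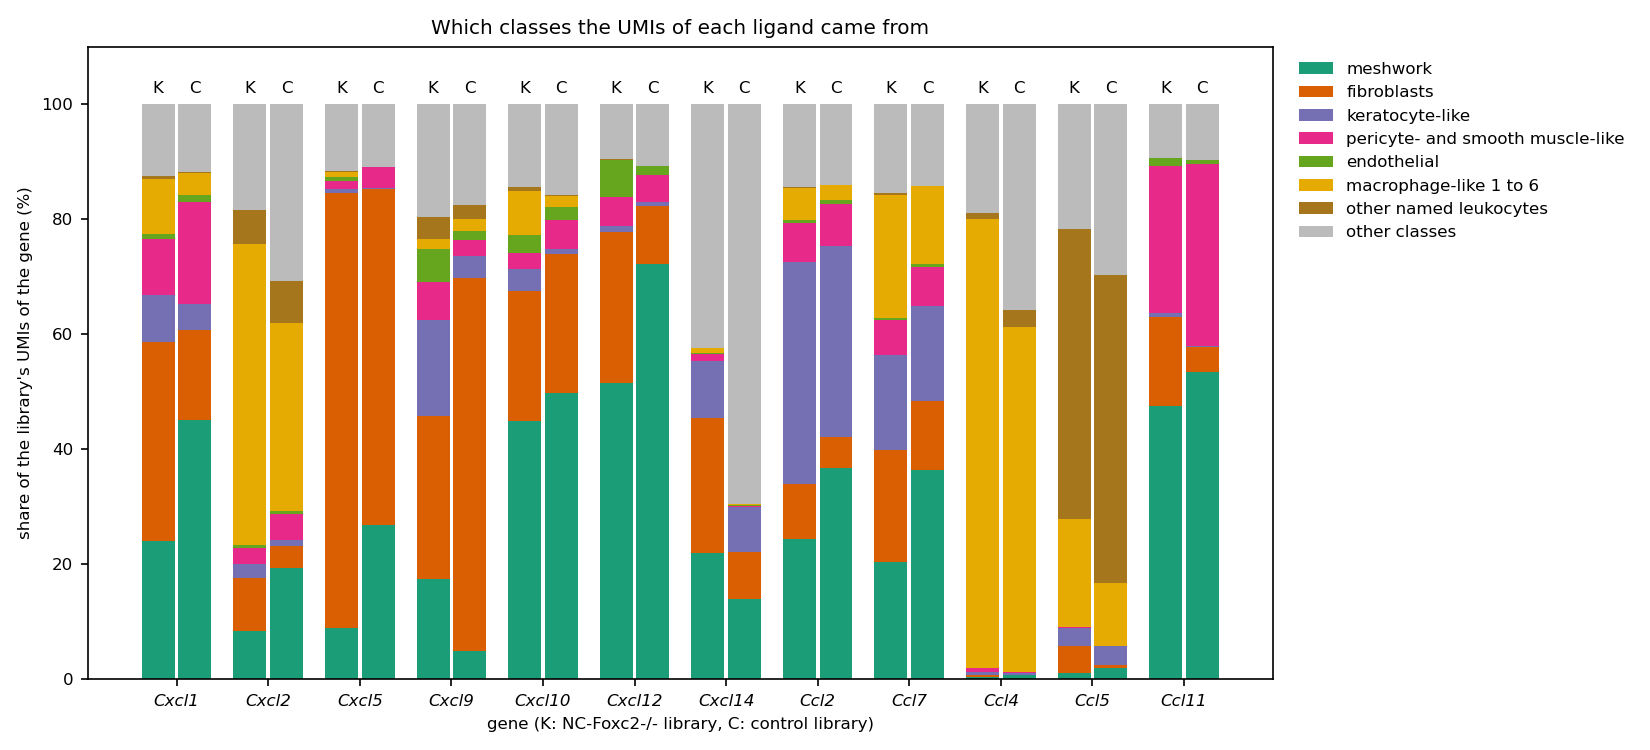
Share of each ligand's UMIs in a library (percent, y axis) that came from groups of classes, for 12 ligands, with the NC-Foxc2-/- bar (K) left of the control bar (C). Meshwork classes gave 51.49% of Cxcl12 UMIs in the NC-Foxc2-/- library and 72.2% in the control library, and macrophage-like classes gave 78.17% and 60.13% of Ccl4 UMIs. Shares also depend on how many cells of each class a library held.

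Receptors were sparser than ligands. Ccr7, the homing receptor for CCL19 and CCL21, had the highest level of the signaling receptors over the 25 classes, with 1270 and 1518 CPM in dendritic-like cells and 899 and 1028 CPM in T cell-like cells. Cxcr6 (718 and 646 CPM), Cxcr3 (92.3 and 120 CPM) and Ccr2 (233 and 52.6 CPM) were highest in T/NK cell-like cells with the libraries summed, though in the control library alone Ccr2 was highest in leukocyte cluster 11, from 19 UMIs. Cxcr5 was highest in B cell-like cells, with 114 CPM in NC-Foxc2-/- cells and 112 CPM in control cells from 20 and 15 UMIs. Cxcr4, carried by most leukocytes, was highest there too with the libraries summed, at 578 CPM (471 to 703) and 300 CPM (214 to 409). In the control library alone, macrophage-like 2 was higher for Cxcr4 (293 and 315 CPM). Cx3cr1, the fractalkine receptor of resident macrophages, was highest in macrophage-like 3, with 589 and 326 CPM. Ccr1 was highest in macrophage-like 2 within each library, at 525 and 886 CPM, and in leukocyte cluster 11 (520 and 757 CPM) with the libraries summed. Cxcr2, the receptor for Cxcl1 and Cxcl2, was at 1027 CPM in 12 NC-Foxc2-/- and 448 CPM in 23 control neutrophil-like cells, a class too small for the order of levels. Those cells gave 19 and 14 UMIs of Cxcr2, and none of the 25 classes had a level above 3.44 CPM over both libraries. Mast cell-like cells (25 and 18) held 57 of the NC-Foxc2-/- and 2 of the control UMIs of Ccl1, a ligand of CCR8. Ccr9 had 74 UMIs in all and its summed level was highest in T cell-like cells, from 2 and 3 UMIs. Ccr3, Ccr4, Ccr6, Ccr8, Ccr10 and Cxcr1 stayed under 50 UMIs over both libraries, with 3 to 43 UMIs each.

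Fractalkine, Cx3cl1, is both a ligand and an adhesion molecule, and it was highest in TM-3 in the NC-Foxc2-/- library (90.6 CPM; control 83.7 CPM) and in blood endothelial cells in the control library (NC-Foxc2-/- 80.0 CPM; control 154 CPM). Of the atypical receptors, Ackr1, which passes chemokines across venules, was concentrated in BEC-1, with 3127 CPM in 25 NC-Foxc2-/- and 4500 CPM in 8 control cells. BEC-2, BEC-3 and BEC-5 had no UMI of Ackr1. Ackr2, a scavenger of inflammatory CC chemokines, was highest in SC and lymphatic ECs, at 280 CPM (209 to 367) and 343 CPM (305 to 385). Ackr3, the scavenger of CXCL12, was highest in fibroblasts, at 329 CPM (314 to 343) and 412 CPM (390 to 434). Ackr4 reached 2.10 and 4.59 CPM in TM-1, from 6 and 17 UMIs.

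**Figure D3:**
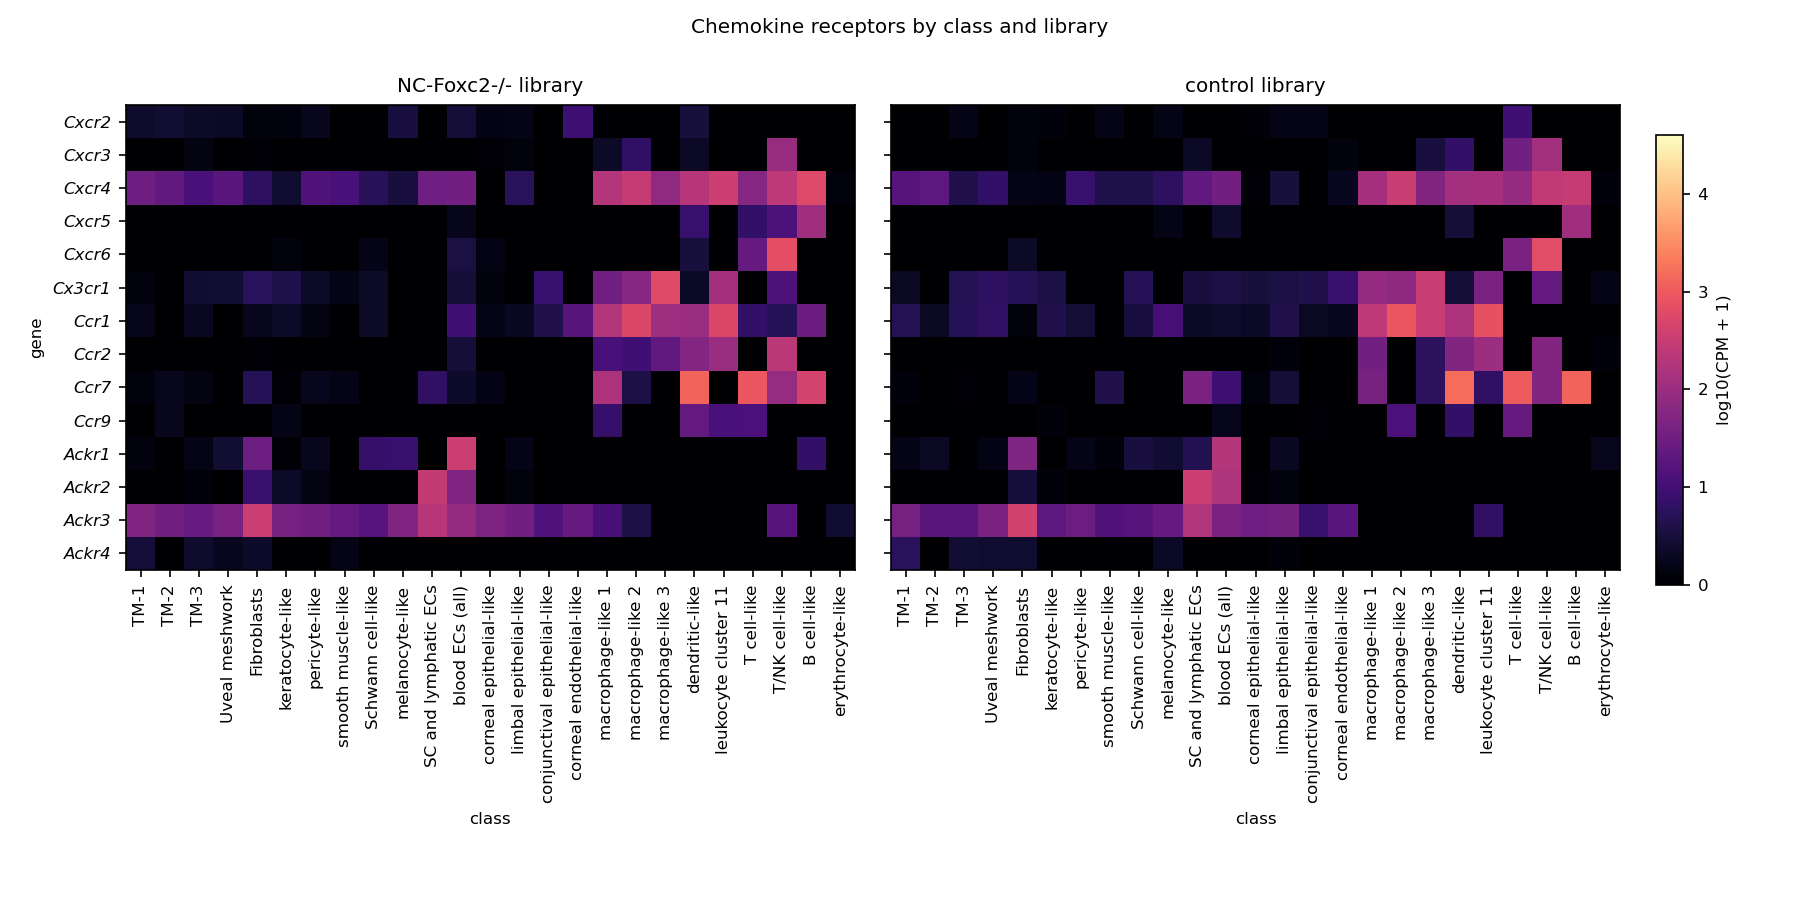
Levels of 14 chemokine and atypical receptors (rows) in 25 classes (columns) as log10(CPM + 1), with the NC-Foxc2-/- library on the left and the control library on the right. Ccr7 is high in dendritic-like, T cell-like and B cell-like cells, and Ackr2 in SC and lymphatic ECs.

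For 30 of the 46 members with at least 50 UMIs, the class with the highest CPM was the same in both libraries. No such share was taken over all genes, so this count has none to be read against. The remaining comparisons set the libraries side by side within a class. A member with 50 or more UMIs in a class, both libraries summed, counted as higher at a CPM ratio of 2 and above and as lower at 0.5 and below. Just inside this rule lay Cxcl1 in fibroblasts and Cxcl10 in keratocyte-like cells (ratios of 2.07 and 2.05), and just outside it Cxcl10 in TM-3 and Cxcl5 in fibroblasts (1.999 and 1.99). Of 105 such member and class pairs, 72 stayed so in the same direction without the highest cell of each library, and values below are of those 72 unless said otherwise. The highest cell was left out for members only, so 72 of 105 has no share of all genes to be read against. For the 105 pairs, shares of all genes are given class by class below. Free RNA moved in the same direction for 2 ligands. Erythrocyte-like cells, which should not make them, had 29.4 CPM of Ccl2 in the NC-Foxc2-/- library and 8.02 CPM in the control library (ratio 3.66, 2.37 to 5.79), and 18.5 and 6.95 CPM of Cxcl2 (ratio 2.67, 1.62 to 4.48). Both were the members with at least 50 UMIs in that class, of which 2 were higher and 0 lower, beside 11.5% and 2.03% of all genes. Levels of Ccl2 and Cxcl2 near these values are read as background.

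**Figure D4:**
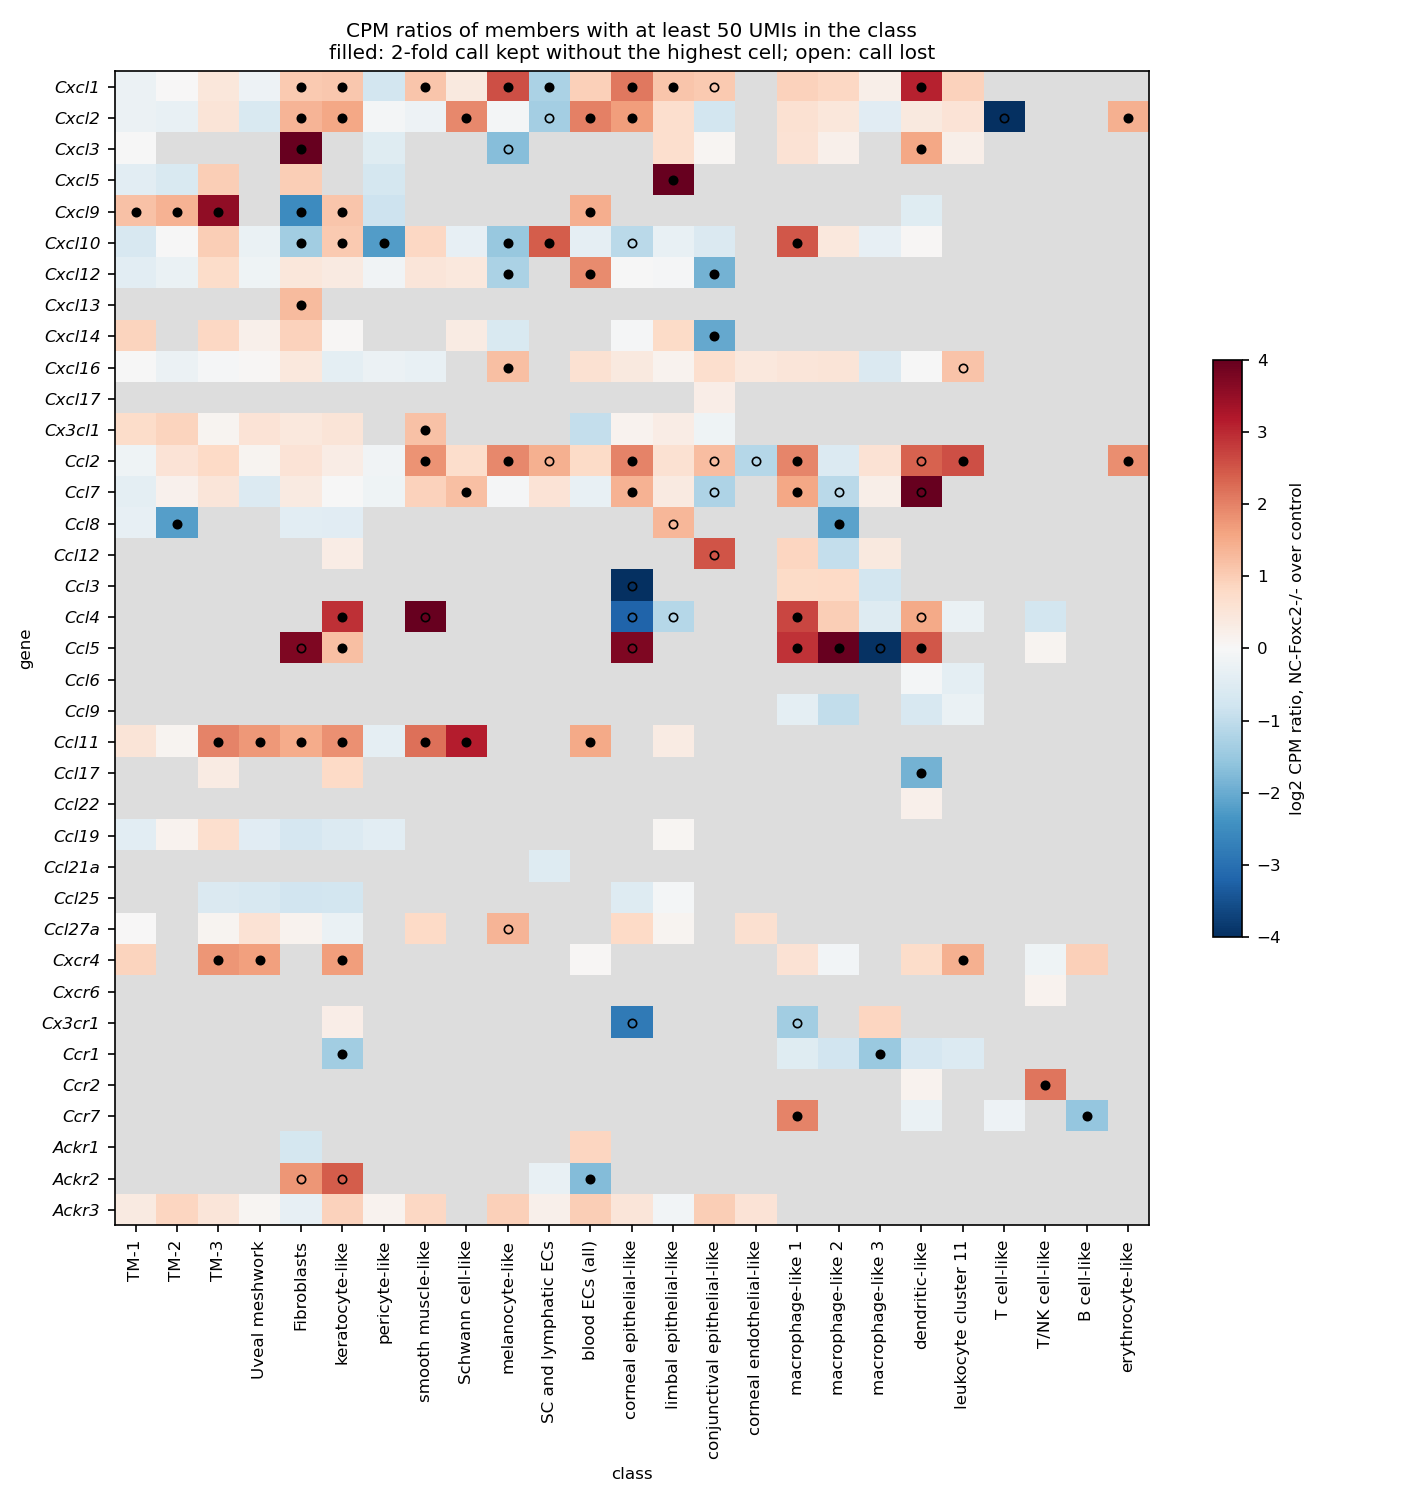
Log2 CPM ratio of NC-Foxc2-/- over control (color; red higher, blue lower in NC-Foxc2-/-) for members (rows) with at least 50 UMIs in a class (columns), with gray for fewer or for 0 UMIs in a library. Dots mark ratios past 2-fold, filled where they stay past the rule without the highest cell; of 99 dots, 71 are filled.

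Fibroblasts, with 962 NC-Foxc2-/- and 433 control cells, showed higher CXCR2 ligands and lower CXCR3 ligands in the NC-Foxc2-/- library. Of 22 members with at least 50 UMIs, 7 were higher and 2 lower, beside 4.84% and 6.09% of all genes, and the median log2 ratio was 0.44 for these members and -0.02 for all genes. Cxcl1 had 2723 CPM (2681 to 2765) in NC-Foxc2-/- and 1318 CPM (1280 to 1358) in control fibroblasts, a ratio of 2.07 (2 to 2.14). Cxcl2 had 1018 and 399 CPM (ratio 2.55, 2.4 to 2.71), and Cxcl3 had 66.5 and 3.61 CPM (ratio 18.4, 10.4 to 36). Cxcl5 was just inside 2-fold, at 1.99 (1.85 to 2.14). A Cxcl2 UMI was found in 24.9% of NC-Foxc2-/- and 12.7% of control fibroblasts (15.5% and 7.66% after thinning of each cell to 1000 UMIs), against 5.87% and 2.05% of erythrocyte-like cells. Ccl11 was higher at 280 and 99.9 CPM (ratio 2.8, 2.49 to 3.16), and so was Cxcl13 at 30.7 and 12.6 CPM (2.43, 1.73 to 3.48). In the other direction, Cxcl9 had 58.0 CPM in NC-Foxc2-/- and 334 CPM in control fibroblasts (ratio 0.173, 0.153 to 0.196), and Cxcl10 had 395 and 1043 CPM (0.378, 0.359 to 0.399). Of the Ccl5 UMIs in NC-Foxc2-/- fibroblasts, 85.48% lay in 1 cell, and without the highest cells neither Ccl5 nor Ackr2 reached 50 UMIs. Macrophage markers summed to 24.3 CPM in NC-Foxc2-/- and 12.9 CPM in control fibroblasts, with 1 of 8 at 0 in each. Fibroblast markers summed to 6844 and 10605 CPM and conjunctival epithelial markers to 9.55 and 42.1 CPM. The part of these markers in the result was not tested.

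Among the meshwork classes, the largest ratios were at low levels, while the main sources changed little. Ccl11 in TM-2, its highest class, had a ratio of 1.07 (1.02 to 1.14). TM-3 is a class of 1142 NC-Foxc2-/- and 852 control cells in which 3 of 18 members were higher and 0 lower, beside 3.64% and 2.29% of all genes. There Ccl11 had 46.0 and 11.7 CPM (ratio 3.95, 3.06 to 5.15), in 4.99% of NC-Foxc2-/- and 1.29% of control cells (erythrocyte-like 0.618% and 0.102%). Of its UMIs, 85 of 343 in NC-Foxc2-/- and 42 of 73 in control TM-3 lay in 1 cell. Without the highest cells the Ccl11 ratio was 6.99, outside that interval. Cxcl9 had 11.3 and 0.959 CPM (11.8, 5.18 to 33), from 84 and 6 UMIs, with 35 of the 84 in 1 cell, and Cxcr4 had 11.4 and 3.36 CPM (3.40, 2.09 to 5.77). Neutrophil markers in TM-3 summed to 70.1 CPM (1 of 4 at 0) and 3.52 CPM (2 of 4 at 0), mast cell markers to 19.1 and 1.76 CPM and cycling markers to 34.4 and 11.3 CPM, and their part was not tested. Macrophage markers there summed to 20.5 and 24.1 CPM. In uveal meshwork, 2 of 15 members were higher (2.06% of all genes) and 0 lower (1.49%). These were Ccl11, at 56.7 and 17.2 CPM (3.30, 2.58 to 4.23), and Cxcr4, at 17.9 and 5.73 CPM (3.13, 2.03 to 4.91). With clusters rebuilt in place of the study's names, the Ccl11 ratio in uveal meshwork was 0.941, so its direction did not hold there. Cxcl9 was also higher in TM-1, at 23.8 and 10.5 CPM (2.26, 1.5 to 3.45), as 1 of 18 members (2.24% of all genes). TM-2 had 1 of 14 higher (2.77%) and 1 lower (1.88%): Cxcl9 at 49 and 18.6 CPM (2.64, 1.53 to 4.76) and Ccl8 at 12.9 and 58.9 CPM (0.219, 0.115 to 0.392).

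In the corneal stroma, keratocyte-like cells (2482 and 1620) had 10 of 25 members higher and 1 lower, beside 2.26% and 1.28% of all genes, with a median log2 ratio of 0.51 for members and 0.01 for all genes. Cxcl1 had 101 CPM in NC-Foxc2-/- and 47.7 CPM in control cells (ratio 2.13, 1.99 to 2.27), and Cxcl2 had 41.2 and 14 CPM (2.95, 2.63 to 3.32). For Cxcl2 these compare with 18.5 and 6.95 CPM in erythrocyte-like cells, where the ratio was 2.67. The abundant Ccl2 had a ratio inside 2-fold, at 1028 and 837 CPM. Other members past the rule had 10.6 CPM or less in each library: Cxcl10 with 10.6 and 5.17 CPM (2.05, 1.68 to 2.5), Cxcl9 with 5.39 and 2.49 CPM, Ccl5 with 4.46 and 1.92 CPM (46 of 51 control UMIs in 1 cell), Ccl4 with 1.70 and 0.226 CPM, Ccl11 with 1.73 and 0.490 CPM and Cxcr4 with 1.57 and 0.490 CPM. Ccr1 was lower, with 1.25 and 3.28 CPM (0.381, 0.261 to 0.549), but the ratio was 1.17 with cells thinned to 1000 UMIs. Macrophage markers in this class summed to 29.7 and 53.0 CPM.

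Mural, glial and melanocyte-like classes differed by member. In pericyte-like cells (534 and 378), 0 of 13 members were higher (5.94% of all genes) and 1 lower (3.72%). That was Cxcl10, at 78.0 CPM (67.3 to 90) in NC-Foxc2-/- and 365 CPM (336 to 396) in control cells, a ratio of 0.214 (0.18 to 0.252). Smooth muscle-like cells had 5 of 12 higher (1.66%) and 0 lower (1.91%), among them Ccl2 at 257 and 73.2 CPM (3.50, 3.02 to 4.07), Cxcl1 at 123 and 57.0 CPM (2.16, 1.79 to 2.61), Ccl11 at 36.5 and 7.87 CPM (4.63, 2.98 to 7.37) and Cx3cl1 at 27.6 and 12.3 CPM (2.24, 1.48 to 3.39). Ccl4 there rested on 1 cell with 78.95% of its NC-Foxc2-/- UMIs. Schwann cell-like cells had 3 of 8 higher (2.21%) and 0 lower (1.68%): Ccl11 at 143 and 16.1 CPM (8.89, 5.62 to 14.8), Cxcl2 at 635 and 168 CPM (3.79, 3.26 to 4.42) and Ccl7 at 39.1 and 16.9 CPM (2.31, 1.39 to 4). A Ccl11 UMI was in 4.34% of NC-Foxc2-/- and 2.36% of control Schwann cell-like cells, against 0.618% and 0.102% of erythrocyte-like cells. Melanocyte-like cells (64 and 183) had 4 of 11 higher (7.15%) and 3 lower (9.99%). Cxcl1 (436 and 72.4 CPM), Ccl2 (1532 and 401 CPM) and Cxcl16 (64.7 and 28.3 CPM) were higher, and Cxcl10 (113 and 319 CPM) and Cxcl12 (14.4 and 34.5 CPM, from 6 and 61 UMIs) lower. Of the Ccl2 UMIs, 42.1% in NC-Foxc2-/- and 35.83% in control melanocyte-like cells lay in 1 cell. With cells thinned, the Cxcl16 ratio turned to 0.863. Markers of the melanocyte itself summed to 5072 CPM in NC-Foxc2-/- and 25844 CPM in control cells of this class. Ciliary epithelial markers summed to 122 and 1094 CPM and corneal epithelial markers to 28.8 and 1758 CPM. Endothelial markers summed to 338 and 8.49 CPM and trabecular meshwork markers to 726 and 111 CPM. The part of these markers, and the lineage of the class, were not tested.

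Endothelial cells of the conventional outflow tract were few. SC and lymphatic ECs numbered 23 NC-Foxc2-/- and 84 control cells, and 2 of 8 members were higher (4.44% of all genes) and 2 lower (5.21%). Cxcl10 had 1189 CPM (1037 to 1356) in NC-Foxc2-/- and 221 CPM (190 to 255) in control cells, a ratio of 5.38 (4.41 to 6.57), and 39.82% of the 221 NC-Foxc2-/- UMIs lay in 1 cell. Without the highest cells the Cxcl10 ratio was 5.329. Cxcl1 was lower, at 80.7 and 195 CPM (0.414, 0.227 to 0.703), from 15 UMIs in the NC-Foxc2-/- library, and with cells thinned the ratio was 1.06. Ccl2 had a ratio of 2.65 with the highest cells and 0.780 without, and Cxcl2 had a ratio of 0.393 with them and 0.519 without.

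Blood endothelial cells, 230 and 123 in all, had 4 of 14 members higher and 1 lower, beside 3.94% of all genes in each direction, and the median log2 ratio was 0.82 for members and -0.06 for all genes. Their makeup differed between the libraries, with 59 NC-Foxc2-/- and 12 control cells in BEC-2, 14 and 43 in BEC-5, and 22 and 0 in the NC-Foxc2-/- ECs. Venular markers summed to 2337 and 602 CPM, and macrophage markers to 83.9 CPM (2 of 8 at 0) and 10.2 CPM (4 of 8 at 0); their part was not tested. Cxcl12 had 495 CPM (460 to 531) in NC-Foxc2-/- and 132 CPM (114 to 153) in control cells, a ratio of 3.75 (3.18 to 4.43). Within sub-clusters, Cxcl12 had 1114 CPM in NC-Foxc2-/- and 92.4 CPM in control BEC-2 (356 and 9 UMIs), 510 and 257 CPM in BEC-6, 245 and 191 CPM in BEC-4, 124 and 104 CPM in BEC-3, 116 and 91.1 CPM in BEC-5 and 46.6 and 56.0 CPM in BEC-1 (7 and 3 UMIs), and it had 1203 CPM in the NC-Foxc2-/- ECs, which no control cell joined. The pooled ratio was thus larger than those in BEC-1, BEC-3, BEC-4, BEC-5 and BEC-6. Ackr2 was lower, with 48.8 CPM (38.4 to 61.1) and 163 CPM (143 to 186), a ratio of 0.299 (0.227 to 0.389). Ackr2 had 132 and 247 CPM in BEC-5, 134 and 160 CPM in BEC-3 and 58.5 and 133 CPM in BEC-6. Cxcl2 (157 and 38.5 CPM; 4.07, 3.01 to 5.59), Ccl11 (100 and 34.8 CPM; 2.87, 2.07 to 4.06) and Cxcl9 (43.6 and 16 CPM; 2.73, 1.66 to 4.64) were higher. Of the 154 Ccl11 UMIs of NC-Foxc2-/- blood endothelial cells, 51 were in the NC-Foxc2-/- ECs and 95 in BEC-6, where 25% of NC-Foxc2-/- and 47.06% of control cells were called doublets. A single cell held 33.12% of the NC-Foxc2-/- and 34 of the 48 control Ccl11 UMIs, and without the highest cells the ratio was 6.59.

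**Figure D5:**
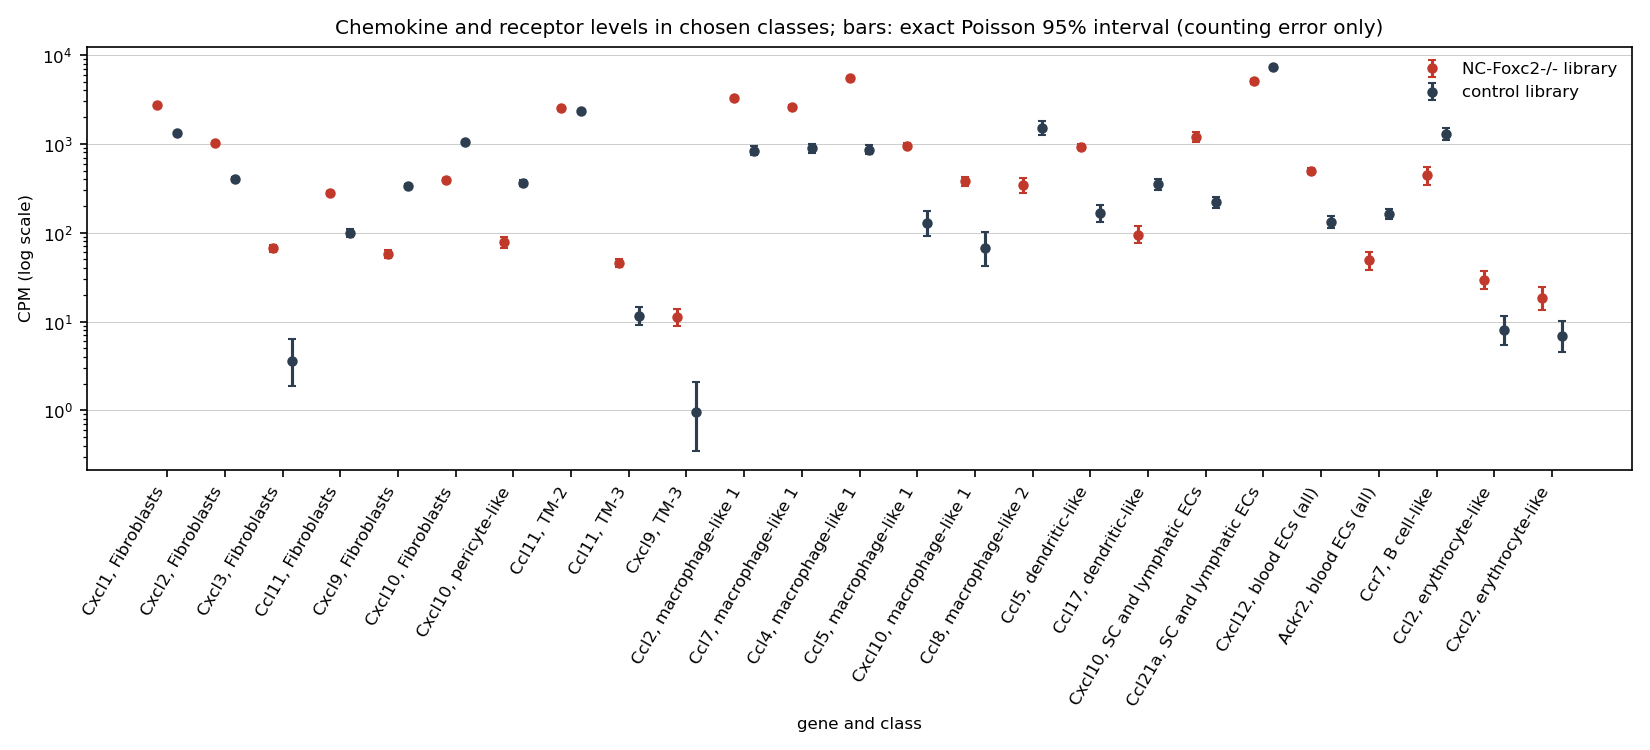
CPM on a log scale (y axis) of 25 gene and class pairs (x axis) in the NC-Foxc2-/- library (red) and the control library (dark), with exact Poisson 95% intervals that cover counting error only. Cxcl9 and Cxcl10 lie lower in NC-Foxc2-/- fibroblasts, at 58.0 and 395 CPM, and Cxcl1, Cxcl2 and Cxcl3 lie higher.

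Inflammatory ligands were higher in macrophage-like 1 (118 NC-Foxc2-/- and 54 control cells), where 6 of 17 members were higher and 1 lower, beside 3.59% and 4.70% of all genes. The median gene of this class had a log2 ratio of -0.16 and the median member 0.75. Ccl4 had 5538 CPM (5375 to 5704) in NC-Foxc2-/- and 862 CPM (764 to 969) in control cells, a ratio of 6.42 (5.69 to 7.27). A Ccl4 UMI occurred in 65.3% and 31.5% of these cells (49.2% and 22.2% after thinning), against 1.24% and 0% of erythrocyte-like cells, with median depths of 6626 and 5524 UMIs. Ccl2 had 3252 and 837 CPM (3.88, 3.43 to 4.42), Ccl7 had 2601 and 896 CPM (2.90, 2.57 to 3.29) and Ccl5 had 958 and 129 CPM (7.44, 5.45 to 10.4). In control cells, 73.81% of the 42 Ccl5 UMIs lay in 1 cell. Cxcl10 had 378 and 67.5 CPM (5.60, 3.63 to 9.07), and Ccr7, which maturing phagocytes acquire, had 159 and 39.9 CPM (3.99, 2.25 to 7.71). Cx3cr1 was lower, at 32.9 and 85.9 CPM (0.383, 0.216 to 0.677), but not past the rule without the highest cells. Macrophage markers summed to 12711 CPM in NC-Foxc2-/- and 16300 CPM in control cells, and dendritic markers to 10.1 and 33.7 CPM.

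Macrophage-like 2, with 79 NC-Foxc2-/- and only 19 control cells, had 1 of 16 members higher (10.6% of all genes) and 3 lower (4.58%). Ccl8 had 341 and 1516 CPM (0.225, 0.174 to 0.291), with 67 of the 130 control UMIs in 1 cell, and Ccl5 had 381 and 11.7 CPM from 135 and 1 UMIs (32.6, 5.76 to 1299). Ccl7 (0.471, 0.439 to 0.505) was also lower but lost that without the highest cells. Macrophage-like 3 (42 and 82) had 0 of 12 higher (2.97%) and 2 lower (7.05%), of which Ccr1 had 108 and 303 CPM (0.357, 0.211 to 0.574). For Ccl5 in that class, 88.79% of the control UMIs lay in 1 cell.

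Dendritic-like cells (103 and 59) had 7 of 19 members higher (4.37% of all genes) and 1 lower (2.76%). Ccl5 had 932 CPM (869 to 997) in NC-Foxc2-/- and 165 CPM (132 to 204) in control cells (5.64, 4.51 to 7.14), Cxcl1 had 198 and 23.3 CPM (8.50, 4.75 to 16.8) and Cxcl3 had 312 and 107 CPM (2.92, 2.18 to 3.97). Of the Cxcl3 UMIs, 70.91% in NC-Foxc2-/- cells and 61.82% in control cells lay in 1 cell. Ccl17 was lower at 95.2 and 352 CPM (0.271, 0.206 to 0.352), with 48 of 84 and 83 of 181 UMIs in 1 cell, while Ccl22 had a ratio of 1.14 (0.928 to 1.42), an interval that holds 1. Ccl2, Ccl4 and Ccl7 were past the rule only with the highest cells, without which fewer than 50 UMIs of each remained. Neutrophil markers summed to 210 CPM in NC-Foxc2-/- and 0 CPM in control dendritic-like cells, with 0 and 4 of 4 at 0. Dendritic markers there summed to 381 and 410 CPM, below the macrophage markers at 1500 and 1069 CPM. The part of these markers was not tested.

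Leukocyte cluster 11 (41 and 35) had 3 of 10 members higher (6.08%) and 0 lower (4.21%), among them Ccl2 at 319 and 53.7 CPM (5.94, 3.01 to 13.1) and Cxcr4 at 347 and 129 CPM (2.69, 1.66 to 4.51). Neutrophil markers there summed to 582 CPM (1 of 4 at 0) and 21.5 CPM (2 of 4 at 0) and macrophage markers to 10031 and 15385 CPM, and their part was not tested. In T/NK cell-like cells (68 and 31), 1 of 5 was higher (5.02%) and 0 lower (4.93%). This was Ccr2, at 233 CPM (177 to 301) and 52.6 CPM (21.1 to 108), a ratio of 4.43 (2.02 to 11.5) from 58 and 7 UMIs. The makeup of this class differed too, with NK markers at 1465 and 3388 CPM, innate lymphoid markers at 1308 and 774 CPM and corneal epithelial markers at 28.1 and 2216 CPM, and their part was not tested. B cell-like cells (71 and 46) had 0 of 2 higher (2.15%) and 1 lower (4.82%). Ccr7 had 441 CPM (348 to 551) in NC-Foxc2-/- and 1283 CPM (1098 to 1490) in control B cell-like cells, a ratio of 0.344 (0.259 to 0.452). A Ccr7 UMI was found in 42.3% and 82.6% of them (26.8% and 62.2% after thinning), against 0% and 0% of erythrocyte-like cells, with median depths of 2375 and 2488 UMIs. T cell-like cells had 1 of 3 higher (2.75%) and 1 lower (3.47%), and neither Ccl5 nor Cxcl2 there stayed past the rule without the highest cell.

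In the surface epithelia depth was high, with medians of 19332 and 18931 UMIs in corneal epithelial-like cells. That class (328 and 1026) had 5 of 16 members higher (2.01% of all genes) and 4 lower (2.18%). Cxcl1 had 72.3 and 16.9 CPM (4.27, 3.71 to 4.92), Cxcl2 had 53.0 and 16.5 CPM (3.21, 2.75 to 3.74), Ccl2 had 10.8 and 2.70 CPM (3.99, 2.76 to 5.78) and Ccl7 had 5.24 and 1.99 CPM (2.63, 1.61 to 4.25), a ratio that turned to 0.788 with cells thinned. The Ccl2 levels lie below the 29.4 and 8.02 CPM of erythrocyte-like cells. Of the 245 Ccl4 UMIs in control cells, 244 came from 1 cell. Limbal epithelial-like cells (201 and 561) had 3 of 19 higher (1.17%) and 2 lower (6.60%), of which Cxcl1 had 123 and 56.6 CPM (2.17, 1.91 to 2.47) and Cxcl5 had 32.8 and 1.84 CPM (17.8, 11 to 30.4), with 58.25% of the NC-Foxc2-/- Cxcl5 UMIs in 1 cell. Doublet calls took 26.9% and 32.4% of this class. Its limbal markers summed to 8214 and 10568 CPM, which did not set it apart. The same markers summed to 8302 and 10051 CPM in corneal epithelial-like cells and to 9547 and 15426 CPM in conjunctival epithelial-like cells. Conjunctival epithelial-like cells (25 and 447) had 3 of 14 higher (5.58%) and 4 lower (16.3%), and corneal endothelial-like cells (9 and 167) had 0 of 4 higher (10.9%) and 1 lower (16.4%), both with too few NC-Foxc2-/- cells to describe single members.

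Other genes of the same pathways were counted by the same rule in fibroblasts, TM-3, pericyte-like cells, blood endothelial cells and macrophage-like 1, classes chosen after their values were seen. Of 15 NF-kB and cytokine genes, 11 had at least 50 UMIs in fibroblasts, with 4 higher (4.84% of all genes) and 0 lower (6.09%) in NC-Foxc2-/- cells. The interleukin gene Il6 had 412 and 94.2 CPM (ratio 4.37, 3.89 to 4.93) and the NF-kB inhibitor Tnfaip3 had 34.2 and 10.8 CPM (3.15, 2.21 to 4.63), while Csf3, a neutrophil growth factor, had 113 and 222 CPM (0.509) and Nfkbia had 689 and 562 CPM (1.23). In macrophage-like 1, 3 of 11 were higher (3.59%) and 0 lower (4.70%), with Ptgs2 (752 and 181 CPM; 4.16) and Tnfaip3 (640 and 242 CPM; 2.64) at the top and Csf3 (70.8 and 107 CPM; 0.659) and Nfkbiz (214 and 261 CPM; 0.819) at the bottom. Blood endothelial cells had 6 of 11 higher and 0 lower (3.94% each), led by Csf3 (654 and 39.9 CPM; 16.4) and Il6 (111 and 17.4 CPM; 6.34), with Nfkbia (1.05) and Icam1 (1.16) lowest. TM-3 had 1 of 13 higher (3.64%) and 1 lower (2.29%), and pericyte-like cells had 0 of 11 in either direction (5.94% and 3.72%).

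Of 9 interferon response genes, 6 were lower (3.72% of all genes) and 0 higher (5.94%) in NC-Foxc2-/- pericyte-like cells, one of the classes where Cxcl10 was lower. Ifit3 had 50.4 and 237 CPM (0.212, 0.172 to 0.261) and Iigp1 had 157 and 501 CPM (0.314, 0.277 to 0.355), with Rsad2 (1.22) and Gbp2 (0.714) at the other end. Outside the chosen classes, 5 of 9 were lower in melanocyte-like (9.99%), limbal (6.60%) and conjunctival epithelial-like cells (16.3%). So were 3 of 6 in smooth muscle-like (1.91%) and 3 of 7 in corneal epithelial-like cells (2.18%). In conjunctival epithelial-like cells 1 was higher (5.58%), and in the others 0. Limbal epithelial-like and smooth muscle-like cells had no Cxcl10 ratio past the rule. Fibroblasts had 1 of 9 lower (6.09%) and 0 higher (4.84%), with Irf7 (26.0 and 63.2 CPM; 0.411) lowest and Gbp2 (1.60) and Iigp1 (1.16) highest. In macrophage-like 1, 3 of 5 were higher (3.59%) and 0 lower (4.70%), with Ifit1 from 74 and 1 UMIs and Rsad2 (302 and 15.3 CPM; 19.7) highest and Irf7 (0.711) and Isg15 (1.69) lowest. Blood endothelial cells had 3 of 9 higher and 0 lower (3.94% each), and TM-3 had 0 of 8 in either direction (3.64% and 2.29%). Of 11 immediate early and stress genes, which respond to handling of tissue, 2 were higher and 1 lower in TM-3, beside the same shares of all genes. Hspa1b (1577 and 357 CPM; 4.41) and Hspa1a (1994 and 477 CPM; 4.18) were highest and Atf3 (0.461) and Ier3 (0.526) lowest. Higher and lower counts were 1 and 0 in fibroblasts and in pericyte-like cells, 2 and 0 in blood endothelial cells and 0 and 2 in macrophage-like 1, to be set against those shares of each class, and their part in the chemokine results was not tested. Of 22 further genes of chemokine signaling and handling, 15 had at least 50 UMIs in fibroblasts and 12 in macrophage-like 1, with 0 past the rule in either direction in both classes, beside the shares of all genes given for each class. Pericyte-like cells had 4 of 11 lower (3.72%) and 1 higher (5.94%), with Cd74 (23.5 and 145 CPM; 0.162) and Rgs16 (334 and 1094 CPM; 0.305) lowest and Pf4 (20.6 and 3.71 CPM; 5.57) and Gnb1 (1.24) highest. TM-3 had 1 of 15 (3.64% higher and 2.29% lower) and blood endothelial cells 1 of 12 (3.94%) in each direction.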

How the data were processed

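Per the labels and the file headers, the authors deposited counts of UMIs per gene and barcode for 1 pooled library per condition, made with Cell Ranger 4.0.0 on mm10; no normalization had been applied to these counts. Here, cells with over 8% mitochondrial UMIs were left out, and 519 NC-Foxc2-/- (4.77%) and 410 control (3.81%) cells called doublets by Scrublet (scikit-image 0.26.0 threshold, Scanpy 1.11.5) were kept. Study class names came from matching deposited cells to the study's source data (98.5% to 100% of cells per class joined). Other cells were clustered (2287 variable genes without members, 15 components, 25 neighbors, Leiden 0.8, leidenalg 0.10.2), and leukocytes again. UMIs were summed per class and library. Ratios are NC-Foxc2-/- over control CPM with exact conditional intervals (SciPy 1.17.1). Positions were from GENCODE M21 and promoters from RefSeq. Named genes were members in their highest class or past the 2-fold rule with at least 50 UMIs, except those of the conjunctival epithelial-like and corneal endothelial-like classes, those lost without the highest cell, and the largest total; other lists are given by counts and the 2 highest and 2 lowest ratios in classes chosen after their values were seen. Members and lists were chosen with earlier results of these data known. A member and an interferon response gene enter the counts but are not reported here. The ratio and rule were tested on simulated data.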

Additional observations from a re-analysis of the deposited data

Results flagged for a closer look

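The CPM ratio of NC-Foxc2-/- over control lay on opposite sides of 1 in different classes for 5 members, with intervals that excluded 1 in both classes. The difference between classes was not tested in any of them, and each is 1 library against 1 library. For Cxcl1 the ratio was 8.50 in dendritic-like cells, while SC and lymphatic ECs had 0.414, which turned to 1.06 with cells thinned to 1000 UMIs. Cxcl9 had 11.8 in TM-3 and 0.173 in fibroblasts. Cxcl10 had 5.60 in macrophage-like 1 and 0.214 in pericyte-like cells. Cxcl12 had 3.75 in blood endothelial cells and 0.417 in melanocyte-like cells (6 and 61 UMIs), where melanocyte markers summed to 5072 and 25844 CPM, and Ccr7 had 3.99 in macrophage-like 1 and 0.344 in B cell-like cells.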

How the results depend on the processing

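Of 105 member and class pairs past 2-fold, the number still past it the same way was 95 of 99 with clusters rebuilt, 100 without doublets, 103 with no mitochondrial filter, 105 with ratios divided by the class median, 87 of 96 at resolution 0.4, and 100 at 1.2 or with members among the variable genes. It was 64 with at least 100 UMIs, 22 with cells thinned to 1000 UMIs (where fewer pairs reach 50 UMIs) and 72 without the highest cells, an alternative chosen after seeing the data. The highest level lay in its interval for 22 of 46 members after thinning. Ratios turned direction for Ccl11 in uveal meshwork with clusters rebuilt (0.941). Ccl3 and Ccl4 in corneal epithelial-like cells turned to 2.23 and 26.8 at resolution 1.2, 2.25 and 23.6 with members among the variable genes, and 1.11 and 23.4 without the highest cell. Without it, Ccl2 in SC and lymphatic ECs (0.780), Ccl8 in limbal epithelial-like cells (0.472) and, in conjunctival epithelial-like cells, Cxcl1 (0.765), Ccl2 (0.659) and Ccl12 (0) turned too. Thinned, the turned ratios were 1.17 for Ccr1 in keratocyte-like, 0.863 for Cxcl16 in melanocyte-like, 1.06 for Cxcl1 in SC and lymphatic ECs, 1.58 for both Cxcl10 and Ccl3 and 0.788 for Ccl7 in corneal epithelial-like, 0.998 for Ccl8 and 1.5 for Ccl4 in limbal epithelial-like and 0 for Ccl12 in conjunctival epithelial-like cells.

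Counts of members higher or lower moved as follows. Shares of all genes were taken only for the main rule, so these counts have none to be read against. At 1.5-fold, TM-3 had 9 higher, fibroblasts 5 lower, keratocyte-like cells 2 lower, blood endothelial cells 9 higher and 2 lower, macrophage-like 1 10 higher, macrophage-like 2 4 higher and 6 lower, and dendritic-like cells 3 lower. With at least 20 UMIs, TM-3 had 5 higher and 2 lower, blood endothelial cells 3 lower, macrophage-like 1 3 lower and macrophage-like 2 2 higher. With at least 100 UMIs, keratocyte-like cells had 5 higher, macrophage-like 1 0 lower and dendritic-like cells 3 higher. Thinned, fibroblasts had 4 higher, keratocyte-like cells 1 higher and 0 lower, SC and lymphatic ECs 0 and 0, blood endothelial cells 2 and 0, macrophage-like 1 0 lower, macrophage-like 2 2 and 1, and dendritic-like cells 1 and 0. Without the highest cells, TM-3 had 5 higher, SC and lymphatic ECs 1 and 1, blood endothelial cells 9 higher, macrophage-like 1 0 lower, macrophage-like 2 5 higher and 1 lower, and dendritic-like cells 3 higher. Lower members numbered 3 in blood endothelial cells with clusters rebuilt, 2 there with no mitochondrial filter (and 2 higher in macrophage-like 2), 2 in keratocyte-like cells at resolution 0.4 and 5 in macrophage-like 2 with ratios divided by the median. The cause was not tested.

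No paired analysis was possible because each condition has 1 library. With 1 pooled library per condition, differences between mice, dissections or library preparations cannot be told apart from those of genotype. Small classes limit what counts can show.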
